A study of Mus musculus with 10 samples.

Results

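The 10 genes described here encode heat shock proteins and their partners: Hspa8, Hsph1, Dnajb1, Bag3, Hspb1 and Hspb7, which act mainly in the cytosol, and Hspd1, Hspe1, Hspa9 and Trap1, which act in mitochondria. They were picked by symbol, with earlier results of these data known, and the level over all arrays chose only which probe set stands for a gene. All 10 were found among the 19938 genes with a symbol of their own on the array. The groups were ventricular cardiomyocytes, the muscle cells of the lower heart chambers, from mice labelled VAChT KD (3 arrays) and WT (3 arrays), and whole hearts from KD (2 arrays) and WT (2 arrays) mice. VAChT, encoded by Slc18a3, loads acetylcholine into vesicles, and KD marks its knockdown; the series title calls the line KDHOM. All mice were labelled male, C57BL/6 and 3 months old, were given no treatment, and differed by label only in genotype. RNA from 2 samples was pooled for every array. Nothing else says that arrays came from separate animals, so p-values measure the spread between arrays, which may be partly technical. The labels give neither the altered part of the allele nor the cells in which it acts.

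Heat shock proteins bind unfolded stretches of other proteins and keep them from clumping. HSP70 proteins do this in cycles of ATP hydrolysis, started by J-domain partners and ended by nucleotide exchange factors. In the mitochondrial matrix a second set takes over imported proteins: an HSP70, an HSP90 and a barrel-shaped chaperonin with its lid. Heart muscle, with contractile proteins under constant load and abundant mitochondria, is rich in both sets. Under stress the transcription factor HSF1 binds heat shock elements, repeats of GAA in alternating orientation, in the promoters of many of these genes.

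Promoter sequences were available in a RefSeq table (GRCm38.p6) for 8 of the 10 genes, that is, all but Hspa8 and Hspa9. Each window reached from 250 bases before an annotated start to 50 after it. Both strands were searched for 3 alternating units, GAA then NN then TTC then NN then GAA, or its reverse complement starting and ending with TTC, where N is any base. A shorter motif of 2 units, GAA then NN then TTC or TTC then NN then GAA, overlaps the longer one. The longer motif was in 0.603% of all 32851 windows and the shorter ones in 15.1%. The chaperone genes had 11 windows, of which 4 held the longer motif. Counted by gene, the longer motif was found for 3 (Hspd1, Hspe1 and Hsph1), and the shorter for those and for Hspb1 and Bag3. The windows are not independent: Hspd1 and Hspe1 share the same matches, as do both windows of Hsph1. A match describes letters only, and its absence says nothing of a factor. Hspd1 and Hspe1 are shown first because they lie head to head on chromosome 1, with 215 bases between the nearer annotated Hspd1 start and the Hspe1 start. A farther Hspd1 start lies 95 bases inside Hspe1. Starts are those of the promoter windows. The gene spans given further below for Hsph1 and Trap1 reach past these starts. The stretch printed before the farther Hsph1 start therefore lies inside the Hsph1 span, and part of the Trap1 stretch inside the Trap1 span. Capitals mark the motif matches, and each sequence is written in the direction of the gene named.
Hspd1 and Hspe1 interval, chr1:55087933-55088147, plus strand (Hspe1 direction): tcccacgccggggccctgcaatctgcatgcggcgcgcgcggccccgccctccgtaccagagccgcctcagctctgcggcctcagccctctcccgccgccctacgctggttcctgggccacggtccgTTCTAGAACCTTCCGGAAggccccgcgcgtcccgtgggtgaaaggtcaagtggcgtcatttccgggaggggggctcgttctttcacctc
Hsph1 before its farther start, chr5:149636337-149636436, minus strand: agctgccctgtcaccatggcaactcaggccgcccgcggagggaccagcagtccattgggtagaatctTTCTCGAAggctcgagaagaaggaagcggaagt
Hsph1 site after its start, chr5:149636283-149636305, minus strand: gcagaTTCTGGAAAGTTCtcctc
Hspb1 before its start, chr5:135887769-135887918, plus strand: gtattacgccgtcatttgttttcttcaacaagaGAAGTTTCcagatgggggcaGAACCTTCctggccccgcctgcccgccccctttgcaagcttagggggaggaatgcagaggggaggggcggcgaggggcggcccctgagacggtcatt
Trap1 before its start, chr16:4077811-4077910, minus strand: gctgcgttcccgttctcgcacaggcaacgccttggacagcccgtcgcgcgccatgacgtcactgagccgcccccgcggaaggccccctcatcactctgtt
The single run of capitals in the Hspd1 and Hspe1 interval holds overlapping matches of both lengths. Trap1 is shown because it had the largest KD minus WT difference of the 10 genes in cardiomyocytes, and its window held no match.

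Values were deposited as log2 intensities, so a difference of 1 is a 2-fold ratio. Array medians over all probe sets lay at 5.82 to 5.93 in cardiomyocytes and 7.25 to 7.31 in hearts, so the kinds of sample were not on 1 scale. The labelling manuals named also differ, so labelling and kind of sample cannot be told apart. KD was therefore compared with WT within a kind, and kinds were set side by side only as percentiles, the rank of a gene among all genes of the same array. Slc18a3 did not separate KD from WT arrays, so it gives no check of the labels. It differed by 0.16 between KD and WT cardiomyocytes (95% confidence interval -0.18 to 0.50) and by 0.05 between KD and WT hearts (-0.37 to 0.46; limma adjusted p 1 in both), and the position of its probes is not given in the sources used here. All 10 cardiomyocyte markers had percentiles of at least 99.37 in cardiomyocyte arrays and 97.92 in hearts. Macrophage markers had a median percentile of 41.43 in cardiomyocytes and 86.35 in hearts, and fibroblast markers 62.66 and 92.35. Adipocyte markers had 41.31 and 70.52, and smooth muscle and pericyte markers 69.54 and 80.85. Endothelial markers stayed high in cardiomyocytes, at 87.51 against 95.48 in hearts. The cardiomyocyte arrays were thus not free of signal from markers of other cell types. KD heart array 1 stood apart: the summed signal of 11 thymocyte and T cell markers was 13939 there and 1357 in KD heart array 2, against 1169 and 1478 in the WT hearts. KD heart array 2 had a low summed signal of the 6 atrial markers, 5974 against 13601 in KD heart array 1 and 14504 to 16354 in WT hearts.

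For 4 of the genes the array carried several probe sets: 3 for Hspa8 and 2 each for Hspb1, Hspd1 and Hspe1. The brightest was used for each. Signal from near-identical copies of these genes may not be separable from their own, so their values are uncertain. Of the 20 probe sets with the nearest identifiers, at least 19 belonged to genes of another chromosome (5 for Hspa8, 13 for Hspb1, 11 for Hspd1 and 18 for Hspe1) than the gene itself (9, 5, 1 and 1). The next brightest probe set had neighbours on the gene's own chromosome in each case. Its KD minus WT differences are given beside those of the brightest. This comparison was added once the values had been seen.

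The rank of the chaperone genes differed between cardiomyocytes and whole hearts in both directions. Hspb1, Hspb7 and Hspa9 had higher percentiles in all 6 cardiomyocyte arrays than in all 4 heart arrays (3 of 10, where 30.6% of all genes did). Hspa8 and Hsph1 had lower percentiles in all cardiomyocyte arrays (2 of 10, against 28.1% of all genes). These shares are near the background and single out no group. The other 5 genes overlapped.

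**Figure D1:**
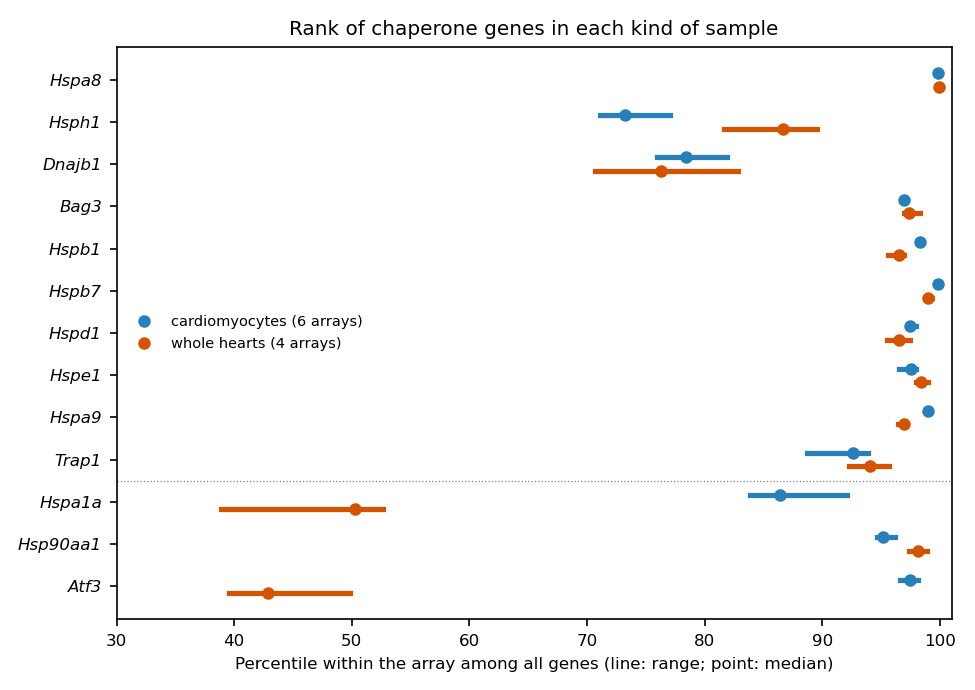
Percentile of each gene among all 19938 genes of an array (x axis), with the line giving the range and the point the median over 6 cardiomyocyte arrays (upper) and 4 whole heart arrays (lower). Hsph1 lies left in cardiomyocytes, while Hspa1a and the stress gene Atf3, below the dotted line with Hsp90aa1, lie far to the right there and near the middle of the heart arrays.

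Hsph1, an HSP110 that exchanges the nucleotide of HSP70, had a median percentile of 73.23 in cardiomyocytes (71.12 to 77.08) and 86.63 in hearts (81.63 to 89.54). Dnajb1, the J-domain partner that hands clients to HSP70, had 78.45 (75.99 to 81.93) and 76.25 (70.66 to 82.86). Hspa8, the constitutive HSP70, stood near the top in both, at 99.82 in cardiomyocytes and 99.89 in hearts, so the gap between its ranges was a small fraction of a percentile. Hspb7, a small heat shock protein of heart muscle, was at 99.82 in cardiomyocytes and 99.01 in hearts. Hspb1, a small heat shock protein that binds actin filaments, was at 98.35 and 96.55. Among the mitochondrial genes Hspa9, the HSP70 that pulls proteins through the inner membrane, was at 98.98 in cardiomyocytes and 96.95 in hearts. Trap1, the mitochondrial HSP90, was at 92.63 and 94.05 with overlapping arrays.

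Other chaperone genes gave a wider contrast between the kinds. Hspa1a, the stress-inducible HSP70, had a median percentile of 86.42 in cardiomyocytes (83.87 to 92.12) and 50.28 in hearts (38.87 to 52.62). Of the 12 immediate early genes, 11 had higher percentiles in all cardiomyocyte arrays, among them the stress transcription factor Atf3 at 97.45 against 42.90 and Fos at 92.51 against 43.70. Hsp90aa1, the inducible cytosolic HSP90, lay the other way, at 95.19 in cardiomyocytes and 98.18 in hearts. Over all genes, 30.6% were higher and 28.1% lower in all cardiomyocyte arrays. In the small heat shock protein list, 5 of 7 other genes were higher in cardiomyocytes and 0 lower. Among them were Cryab, the lens and muscle chaperone alpha B-crystallin (99.72 against 98.95), and Hspb3 (73.94 against 42.13). Hspb11, also among the 5, ranked low in both kinds (34.84 against 6.04). Among 20 mitochondrial import, chaperone and protease genes, 11 were higher and 1 lower, among them Pam16, a regulator of the import motor (94.61 against 86.87). Other lists were split: 5 higher and 7 lower of 14 HSP90 and co-chaperone genes, 4 and 5 of 14 cytosolic chaperonin and prefoldin genes, and 6 and 3 of 16 J-domain genes. The HSP70 list had 4 higher and 0 lower of 9, the nucleotide exchange factors 3 and 2 of 7, and the heat shock transcription factors and regulators 3 and 1 of 5. The part of cell isolation, labelling or normalization in these ranks was not tested.

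KD and WT cardiomyocytes were compared to ask which chaperone transcripts go with the VAChT knockdown in the isolated cardiomyocyte samples. Trap1 was the one gene of the 10 whose KD arrays all lay on one side of the WT arrays, at 1.39-fold lower; it did not pass the test over all genes. The other 9 differed by -0.19 to 0.22. None of the 10 passed (limma, adjusted p 1 each; 0 of 19938 genes passed, 0%), and 1 of 10 had an unadjusted p under 0.05, where 2.1% of all genes did and 1.11% did with KD the lower, as Trap1. Their median difference was 0.01, against 0 over all genes.

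**Figure D2:**
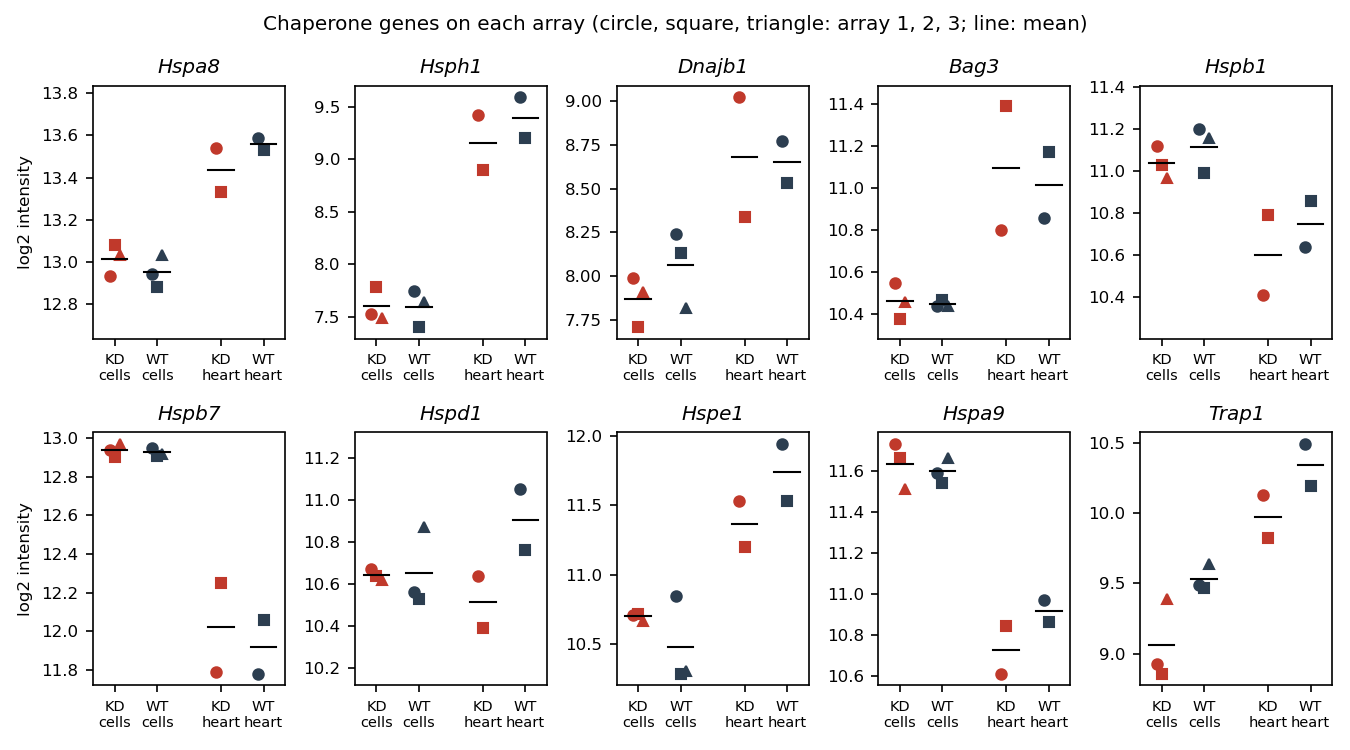
Log2 intensity of each gene on every array (y axis, scaled per gene), for KD and WT cardiomyocytes (cells) and KD and WT hearts, with KD in red, WT in dark blue and the line at the group mean. Trap1 has its KD points below its WT points in cells and in hearts, and array 1 (circle) lies above array 2 (square) for Hsph1 but below it for Bag3 in both heart groups.

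Trap1 (chromosome 16, 4039971 to 4077840, GRCm38.p6) folds proteins of the mitochondrial matrix. Its log2 intensity was 8.93, 8.86 and 9.39 in KD cardiomyocytes, against 9.49, 9.47 and 9.64 in WT cardiomyocytes. KD arrays 1 and 2 lay far below WT, and KD array 3 just below the lowest WT array. The difference was -0.48 (SE 0.15, 95% confidence interval -0.79 to -0.16, unadjusted p 0.00667, limma adjusted p 1). Means were 9.06 ± 0.29 for KD cells and 9.53 ± 0.09 for WT cells (SD, n = 3 each). All KD arrays lay below all WT arrays in 1 of the 10 genes and above them in 0, against 3.21% and 2.99% of all genes. Of the brightest 10% of genes by mean intensity, 0.853% lay below in this way and 47.8% had a difference below 0, as did 4 of the 10 genes here (50% of all genes). Leaving out single arrays moved the difference between -0.64 and -0.38.

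Hspe1 (chromosome 1, 55088148 to 55091317), the lid of the chaperonin, showed the largest difference above 0. It had 10.71, 10.72 and 10.67 in KD cardiomyocytes, against 10.85, 10.29 and 10.31 in WT cardiomyocytes. The KD arrays were tightly grouped, and WT array 1 lay above them while the other WT arrays lay below. The difference was 0.22 (SE 0.16, interval -0.12 to 0.56; adjusted p 1 by limma), and 0.23 with the next brightest probe set. It was 0.40 without WT array 1, 0.12 without WT array 2 and 0.13 without WT array 3. Hspd1 (chromosome 1, 55077833 to 55088243), the chaperonin barrel, had 10.67, 10.64 and 10.62 in KD cells, against 10.56, 10.53 and 10.87 in WT cells. Here WT array 3 stood high, which it did not for Hspe1. The difference was 0.00 (SE 0.12, interval -0.26 to 0.26), and -0.11 with the next brightest probe set. Hspd1 and Hspe1 share the interval printed above. Over the 6 cardiomyocyte arrays their correlation was -0.33, and over all 10 arrays, each centred on the mean of its kind, 0.49. With 6 arrays, and a single WT array apart from the other WT arrays for each gene, this cannot tell whether they vary together in these cells. For Hspe1 that WT array lay near the KD arrays, and the other WT arrays lay below all the rest. The next brightest probe sets showed the same WT arrays apart from the other WT arrays. Hspd1 was at 9.97 in WT array 3 against 9.36 and 9.31 in the others, and Hspe1 at 10.81 in WT array 1 against 10.32 and 10.34.

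Hspa9 (chromosome 18, 34937414 to 34954351) differed by 0.04 (SE 0.10, interval -0.18 to 0.25). In the cytosolic set, Dnajb1 (chromosome 8, 83608175 to 83612653) had 7.99, 7.71 and 7.91 in KD cells, against 8.24, 8.13 and 7.82 in WT cells. The arrays overlapped through WT array 3, and the difference was -0.19 (SE 0.17, interval -0.56 to 0.18). Hspa8 (chromosome 9, 40801276 to 40805202) differed by 0.06 (SE 0.09, interval -0.12 to 0.25), and its next brightest probe set by -0.10. Hsph1 (chromosome 5, 149616843 to 149636498) had 7.52, 7.78 and 7.49 in KD cells, against 7.74, 7.40 and 7.64 in WT cells, a difference of 0.00 (SE 0.16). Hspb7 (chromosome 4, 141420779 to 141425310) stayed within 12.90 to 12.97 in KD cells and 12.91 to 12.95 in WT cells. Bag3 (chromosome 7, 128523583 to 128546981), which links HSP70 to small heat shock proteins and to autophagy at the Z-disc, stayed within 10.38 to 10.55 and 10.44 to 10.47. Hspb1 (chromosome 5, 135887919 to 135889563) differed by -0.08 (SE 0.12), and its next brightest probe set by -0.09.

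The other 92 chaperone genes on the 8 lists had a median difference of 0.03 in cardiomyocytes, and 0 passed. Of these, 59 were higher and 33 lower, where 50% of all genes were lower. Hspa12a, a distant member of the HSP70 family, had the smallest p of these 92 genes. It had 7.54, 7.57 and 7.31 in KD cells, against 7.76, 7.81 and 7.83 in WT cells, with no overlap, and a difference of -0.33 (SE 0.11, limma adjusted p 1). All KD arrays lay below all WT arrays in 1 of the 92 genes and above them in 5, against 3.21% and 2.99% of all genes. Of 14 cytosolic chaperonin and prefoldin genes 12 were above 0, with a median of 0.07, among them Pfdn4 at 0.24 (SE 0.15). Of 20 mitochondrial import, chaperone and protease genes 16 were above 0, with a median of 0.05, among them Pam16 at 0.27 (SE 0.16). None of the macrophage markers was higher in KD cells: all 8 lay below 0, at a median of -0.27, with a summed signal of 401 to 466 in KD and 409 to 796 in WT. Their part in the chaperone values was not tested.

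**Figure D3:**
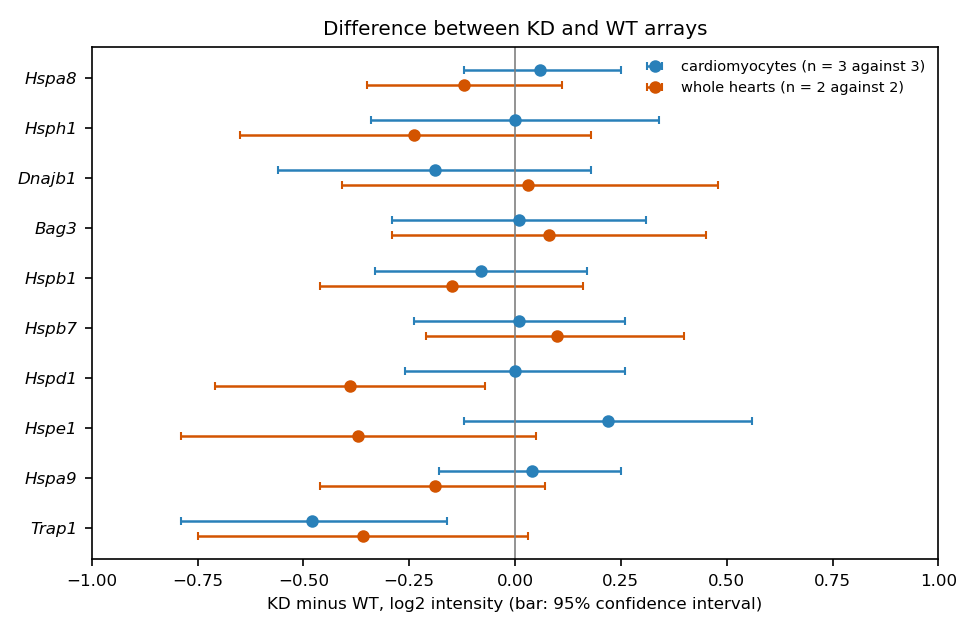
KD minus WT difference in log2 intensity (x axis) for each gene in cardiomyocytes (blue, 3 against 3 arrays) and whole hearts (orange, 2 against 2), with the 95% confidence interval from limma. The interval lies below 0 for Trap1 in cardiomyocytes (-0.79 to -0.16) and for Hspd1 in hearts (-0.71 to -0.07), and includes 0 for the others.

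The comparison of KD with WT hearts asked which of these transcripts go with the genotype in the intact organ. In bulk tissue, fewer cells of a type and less RNA per cell cannot be told apart. The 4 mitochondrial genes all had lower means in KD hearts, by 0.19 to 0.39 on the log2 scale, while the 6 cytosolic genes split evenly, with differences of -0.24 to 0.10. None of the 10 passed (limma adjusted p 0.95 to 1; 0 of 19938 genes passed, 0%), and 1 of 10 had an unadjusted p under 0.05, where 4.93% of all genes did and 2.49% did with KD the lower, as Hspd1. Without KD heart array 2, which leaves KD heart array 1 alone and assumed to vary like the other groups, 303 genes passed, 0 of the 10 among them. The median of the 10 was -0.17, against 0.01 over all genes, but -0.09 under quantile normalization and -0.07 with the trend on intensity removed.

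Hspd1 had 10.64 and 10.39 in KD hearts, against 11.05 and 10.76 in WT hearts. There was no overlap, with KD the lower, and the difference was -0.39 (SE 0.15, interval -0.71 to -0.07, unadjusted p 0.0208, limma adjusted p 0.95). Its next brightest probe set had 9.92 and 9.50 in KD hearts, against 10.48 and 10.12 in WT hearts, a difference of -0.59 (SE 0.23). Hspe1 had 11.53 and 11.20 in KD hearts, against 11.94 and 11.53 in WT hearts. KD array 1 and WT array 2 met at the edge of the groups, and the difference was -0.37 (SE 0.19, interval -0.79 to 0.05). The next brightest Hspe1 probe set had 11.40 and 11.12 in KD hearts, against 11.81 and 11.41 in WT hearts. These did not overlap, by a narrow margin, and the difference was -0.35 (SE 0.19). Trap1 had 10.13 and 9.82 in KD hearts, against 10.49 and 10.19 in WT hearts, without overlap, a difference of -0.36 (SE 0.18, interval -0.75 to 0.03). Hspa9 had 10.61 and 10.84 in KD hearts, against 10.97 and 10.86 in WT hearts. Here KD array 1 was the lower one and KD array 2 almost reached WT, with a difference of -0.19 (SE 0.12, interval -0.46 to 0.07).

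Across the 10 genes, both KD hearts lay below both WT hearts in 3 (Hspd1, Hspa9 and Trap1) and above them in 0, where 15.4% of all genes lay below. In the brightest 10% of genes, which hold 8 of the 10, 33.3% lay below, 73.2% had a difference below 0, and the median was -0.09. With the brightest probe sets, the count of 3 is thus near the share of other bright genes, but it depends on the probe set. With the next brightest probe set, both KD hearts also lay below both WT hearts for Hspe1 and Hspa8, and still did for Hspd1. For Hspa8 the margin was narrow, at 13.43 and 13.29 in KD hearts against 13.46 and 13.44 in WT hearts. The dimmest Hspa8 probe set overlapped, at 13.48 and 13.20 against 13.54 and 13.45. For Hspb1 the arrays overlapped with either probe set. With the trend of the differences on intensity removed, the differences were -0.29 for Hspd1, -0.25 for Hspe1, -0.27 for Trap1 and -0.09 for Hspa9. Cell type markers moved too: all 10 cardiomyocyte markers had a difference below 0 or of 0.00 (median -0.10, summed signal 127334 to 130474 in KD hearts and 135105 to 141410 in WT hearts), as did all 6 atrial markers (median -0.76, 5974 to 13601 and 14504 to 16354). All 8 fibroblast markers (median -0.29, 16335 to 16685 in KD hearts and 18866 to 19242 in WT hearts) and all 8 endothelial markers (median -0.19, 10188 to 10723 and 11067 to 12287) lay below 0. All 11 thymocyte and T cell markers lay above 0 (median 1.60, summed signal 1357 to 13939 and 1169 to 1478), and an array gives no true 0 for a marker. Without KD array 1, which carries the thymocyte signal, the differences were -0.51 for Hspd1, -0.53 for Hspe1, -0.51 for Trap1 and -0.08 for Hspa9. Without KD array 2, which carries the low atrial signal, they were -0.26, -0.20, -0.21 and -0.31 in the same order of genes. With each WT array left out instead, Hspd1 was at -0.24 without WT array 1 and -0.53 without WT array 2, and Hspe1 at -0.16 and -0.58. All 3 blood markers lay above 0 (median 0.76, summed signal 6957 to 8865 in KD hearts and 3296 to 6054 in WT hearts). All 5 adipocyte markers (median -0.25, 3437 to 4022 and 4762 to 5117) and 6 of 7 smooth muscle and pericyte markers (median -0.19, 9105 to 9553 and 10456 to 11944) lay below 0. The part of any of these cell types in the chaperone values was not tested.

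Trap1 was the one of the 10 genes whose KD arrays lay below the WT arrays in cardiomyocytes and in hearts alike, which 79 of 19938 genes did (0.396%). Hspb7 had 11.79 and 12.25 in KD hearts, against 11.78 and 12.06 in WT hearts, a difference of 0.10 (SE 0.14). Bag3 had 10.80 and 11.39 in KD hearts, against 10.86 and 11.17 in WT hearts, a difference of 0.08 (SE 0.17). Hsph1 had 9.42 and 8.90 in KD hearts, against 9.59 and 9.20 in WT hearts, a difference of -0.24 (SE 0.19). In these 3 genes the arrays of each genotype lay farther apart than the group means. That was not particular to them. It also held in both genotypes for Dnajb1 and Hspb1, in KD hearts for Hspa8 and Hspa9, and in WT hearts for Hspe1. Dnajb1, Hspb1 and Hspa8 differed by 0.03, -0.15 and -0.12, each with an interval that included 0. With the next brightest probe set the difference was -0.14 for Hspb1 and -0.09 for Hspa8.

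Of the other 92 chaperone genes, 72 had a difference below 0 in hearts, where 47.4% of all genes and 73.2% of the brightest 10% did. Their median was -0.08, against -0.09 in the brightest 10%, and 0 passed. Many of these genes are dimmer than the brightest 10%, which is therefore not a set matched to them in intensity. The median heart percentile was 38.49 for the heat shock transcription factors and regulators and 90.91 for the cytosolic chaperonin and prefoldin genes. For the mitochondrial import, chaperone and protease genes it was 83.84. Of 20 mitochondrial import, chaperone and protease genes 18 were below 0, with a median of -0.16, and in 10 both KD hearts lay below both WT hearts, where 15.4% of all genes and 33.3% of the brightest 10% did. Timm44, which ties the import motor to the inner membrane channel, had 8.68 and 8.71 in KD hearts, against 9.13 and 8.95 in WT hearts, a difference of -0.34 (SE 0.13). Clpx, the unfoldase of a matrix protease, had 9.26 and 9.07 in KD hearts, against 9.51 in each WT heart. In the HSP90 list 13 of 14 lay below 0 (median -0.14), among them Unc45b, the myosin chaperone of striated muscle, at -0.43 (SE 0.17). Dnajb4, a J-domain gene, had 10.82 and 10.45 in KD hearts, against 11.02 and 10.99 in WT hearts. The small heat shock protein list was centred on -0.01, with Cryab at 0.07 (SE 0.13), and the list of heat shock transcription factors and regulators on 0.03.

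The KD effects in hearts and in cardiomyocytes were compared directly, as heart minus cardiomyocyte difference. The 10 genes had a median of -0.13, against 0.01 over all genes. It was -0.02 under quantile normalization, 0.01 with the trend on intensity removed and -0.02 with the next brightest probe sets. None passed (limma adjusted p 0.999 each; 0 of 19938 genes, 0%). Hspe1 alone had an unadjusted p under 0.05, where 3.49% of all genes did, 1.74% with a difference below 0. Its gap was the largest of the 10, -0.59 (SE 0.25, interval -1.13 to -0.05), followed by Hspd1 at -0.39 (SE 0.19, interval -0.80 to 0.03). For Trap1 it was 0.11 (SE 0.23, interval -0.39 to 0.62). Of the 20 other mitochondrial genes 20 were below 0 in this comparison, with a median of -0.15, where 48.8% of all genes were. They were not alone: 73 of the 92 other chaperone genes (median -0.13) and all 10 cardiomyocyte markers (median -0.14) were below 0. So were 13 of 14 HSP90 genes and 13 of 14 cytosolic chaperonin and prefoldin genes (median -0.17 each). Of the small heat shock proteins 5 of 7 were above 0, and of the nucleotide exchange factors 4 of 7.

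The heart arrays numbered 1 and 2 differed in the same direction in KD and WT for 9 of the 10 genes. Hsph1 was higher on array 1 by 0.53 in KD hearts and 0.38 in WT hearts, Dnajb1 by 0.68 and 0.24, and Trap1 by 0.30 in each. Bag3 lay the other way, at -0.59 in KD hearts and -0.31 in WT hearts, with Hspb7 at -0.47 and -0.28 and Hspb1 at -0.39 and -0.21. In all, 6 genes were higher on array 1 in both genotypes, where 22.4% of all genes were, and 3 were lower in both, where 37.2% were. For Hspa9 the directions differed, at -0.23 in KD and 0.11 in WT.

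**Figure D4:**
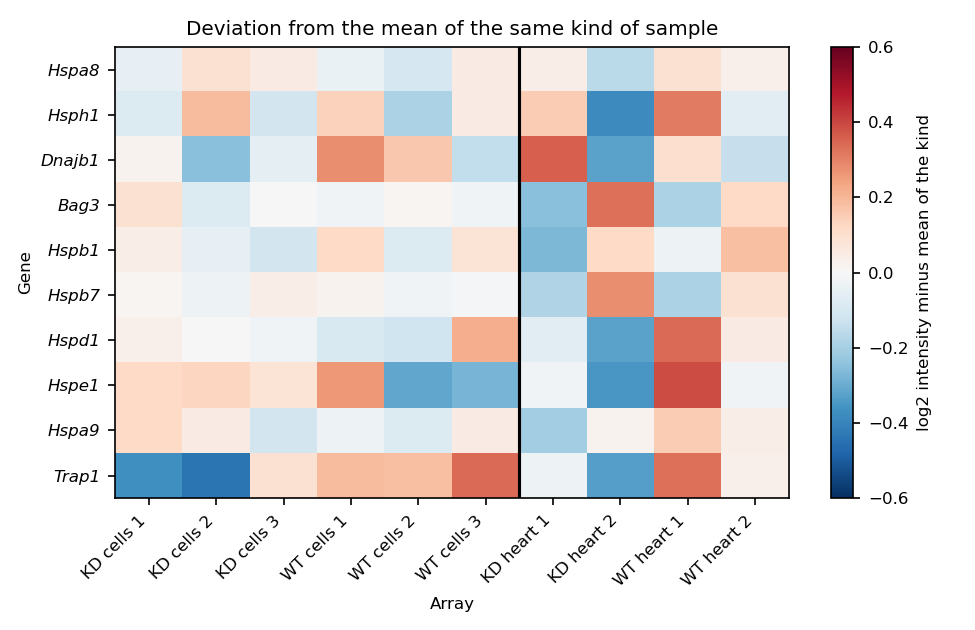
Deviation of each gene (rows) on each array (columns) from the mean of all cardiomyocyte arrays or all heart arrays, in log2 intensity, red above and blue below. Trap1 is darkest blue in KD cell arrays 1 and 2 (-0.37 and -0.44), and KD heart array 2 is blue for Hsph1 (-0.38) and red for Bag3 (0.33).

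The 10 genes did not move as a block between arrays. After each kind of sample was centred on its own mean, Bag3 and Hspb7 followed each other (r = 0.97 over 10 arrays, 0.43 over the 6 cardiomyocyte arrays). Bag3 and Hsph1 ran opposite (r = -0.86 and -0.67), and Hspa8 went with Hsph1 (r = 0.81 and 0.60). These correlations share arrays and normalization, were weaker over the cardiomyocyte arrays alone, and are descriptions. Among 8837 genes of at least median level in both kinds, those closest to the mean of Hspa8, Hsph1, Dnajb1, Bag3 and Hspb1, a group set without the muscle gene Hspb7, were Denr (r = 0.957 over 10 arrays), Tial1 (0.952), Yes1 (0.95), Smg5 (0.934) and Slfn5 (0.928). Closest to the mean of the 4 mitochondrial genes were Fam185a (0.971), Erlec1 (0.964), Mtif2 (0.959), Scp2 (0.958) and Fundc2 (0.956). Both sets were picked as the most alike of 8837 genes over 10 arrays, so high r values follow in part from the choice. Bag3 ran opposite to Hspa8 (r = -0.73) and Dnajb1 (-0.64) as well as Hsph1, so the mean of that group does not stand for each of its genes.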

How the data were processed

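RNA pooled from 2 samples was hybridised to each of 6 cardiomyocyte and 4 heart Affymetrix arrays. For each of 35556 probe sets the authors deposited a log2 intensity. RMA and Partek are named per the submitters' processing notes; no version or setting of either is stated in the labels or headers. RMA includes background correction and normalization across arrays, and narrows differences of dim probes. No detection calls were used.

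Probe sets with 1 symbol (21789) were kept and those with several (1621) or not listed with a gene (12146) left out. Of a gene's probe sets the one with the highest mean was used, which left 19938 genes. All arrays were fitted in limma 3.58.1 (R 4.3.3) with 4 group means and an intensity trend (6 residual and 6.81 prior degrees of freedom) and two-sided tests. Benjamini-Hochberg adjusted p-values covered all genes, with a threshold of 0.05. Percentiles are ranks within an array and were not tested. Alternatives were quantile normalization, median centring, the mean of probe sets, a filter on dim genes, a fit per kind of sample, array weights, no intensity trend in the fit, removal of the trend of the differences on intensity (loess), a replicate block, single arrays left out, ranks among all probe sets and the next brightest probe set. The code was tested on simulated data. A list of 12 immediate early genes, 8 lists of other chaperone genes (92 measured) and 10 of cell type markers were used; members and lists were chosen with earlier results of these data known. Named genes were the members, up to 3 genes per list with the smallest p in a comparison or up to 2 with the highest level, and the 5 most alike per role group; Atf3 and Fos were named after their ranks were seen. Genes on the lists without a probe set of their own were not analysed here.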

Additional observations from a re-analysis of the deposited data

Results flagged for a closer look

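Hspe1 stood out because the difference between its KD effects in the 2 kinds of sample had an unadjusted p under 0.05, which 3.49% of all genes had, and did not pass after adjustment. All 3 KD cardiomyocyte arrays lay above the WT mean, and both KD hearts below theirs. The difference between the KD effects, hearts minus cardiomyocytes, was -0.59 (SE 0.25, unadjusted p 0.0352, limma adjusted p 0.999). It ranged from -0.80 to -0.38 with single arrays left out. In cardiomyocytes WT array 1, at 10.85, lay above every KD array, so the direction there rests on WT arrays 2 and 3.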

How the results depend on the processing

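With 2 or 3 arrays a group, the number of arrays limits the precision. Of the values of the 10 genes, 280 of 290 under other settings and 175 of 200 with an array left out kept their direction; none of the 10 genes passed under any setting run. Directions turned under quantile normalization (Hspb7 -0.03 in cardiomyocytes, Hspb1 0.01 in the difference of effects), median centring (Hsph1 0.00 in cardiomyocytes), array weights (Hsph1 and Hspa9 -0.01 in cardiomyocytes) and removal of the intensity trend (Hspb7 -0.01 in cardiomyocytes, Hspa8 0.02 in hearts, Hspb1 0.05 in the difference). With the next brightest probe set, an alternative chosen after seeing the data, Hspa8 turned to -0.10 in cardiomyocytes and 0.01 in the difference. The median of the 10 genes in hearts was -0.09 under quantile normalization and -0.07 without the intensity trend; that of the difference was -0.02, 0.01, and -0.02 with the next brightest probe sets. Ranked among all probe sets, 1 gene was lower and 4 were higher in cardiomyocytes, against 2 and 3 in the main ranking. The cause was not tested. With single arrays left out, where a lone array takes its spread from the other groups, 0 to 303 genes passed in hearts and 0 to 237 in the difference, the highest without KD heart array 2. Bpifb1 and Scgb1a1 passed without WT heart array 1, and Ms4a1 without KD heart array 1, all named after their values were seen. The medians ranged from -0.03 to 0.02 in cardiomyocytes, -0.27 to -0.11 in hearts and -0.19 to -0.07 in the difference, and 2 to 4 genes ranked lower and 3 to 4 higher in cardiomyocytes. Ranges that crossed 0 were, in cardiomyocytes, Hsph1 -0.09 to 0.07, Bag3 -0.03 to 0.06, Hspb7 -0.01 to 0.03, Hspd1 -0.06 to 0.11 and Hspa9 -0.01 to 0.10. In hearts they were Hsph1 -0.50 to 0.03, Dnajb1 -0.31 to 0.37, Bag3 -0.22 to 0.37, Hspb1 -0.34 to 0.05 and Hspb7 -0.13 to 0.33. In the difference they were Hsph1 -0.50 to 0.03, Dnajb1 -0.12 to 0.56, Bag3 -0.23 to 0.36, Hspb1 -0.26 to 0.13, Hspb7 -0.14 to 0.32 and Trap1 -0.04 to 0.28.

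With the replicate number as a block, 1 gene passed in hearts (Clec1b, named after its value was seen) and 0 in cardiomyocytes and in the difference. The labels do not say that a number marks a shared animal, litter or day. Deviations of same-numbered KD and WT arrays correlated at 0.15, 0.13 and -0.05 in cardiomyocytes and at 0.23 in hearts (0.35 over genes above the median level in cardiomyocytes or hearts), where only 2 pairs exist, and in cardiomyocytes not every array correlated best with its own number.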
